A study of Mus musculus with 12 samples.

Results

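The 34 genes described here encode the chaperones, folding enzymes, stress sensors and degradation machinery of the endoplasmic reticulum (ER). They were chosen by symbol from a list of members, with no measured value in the rule, though earlier results of these data were known. They comprise 12 chaperones and co-chaperones, 8 disulfide and proline isomerases and oxidases, 9 degradation genes and 5 sensors and transcription factors. All 34 are among the 22899 genes of the deposited table and among the 10764 genes that were tested. Transcript levels were measured by RNA-seq in 12 libraries, each from a separate adult Kunming mouse (an outbred stock) of 6 to 8 weeks, which the records give as female; 4 groups had 3 mice each. The colistin + 7-HC group received colistin at 15 mg/kg/day, a polymyxin antibiotic with known kidney toxicity, after 7-hydroxycoumarin (7-HC), a plant coumarin, at 50 mg/kg/day. The colistin group received the same dose of colistin alone, the 7-HC group the same dose of 7-HC alone and the control group saline, all for 7 days. The labels name no mutation or transgene in any group. According to the methods, 7-HC was dissolved in DMSO and colistin in saline, so the vehicle changes with 7-HC in every comparison of mice given it with mice that were not.

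Proteins that enter the ER are folded by chaperones and by enzymes that form disulfide bonds, and those that fail are exported and degraded. When unfolded proteins accumulate, the membrane sensors IRE1 (Ern1), PERK (Eif2ak3) and ATF6 are released from the chaperone BiP (Hspa5). IRE1 splices the Xbp1 transcript, ATF6 is cleaved to a transcription factor, and both raise genes for chaperones and degradation, while PERK slows translation. Secretory cells such as hepatocytes express these genes at high basal levels, and CREB-H (Creb3l3) is a related ER-bound factor of liver and intestine.

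The libraries were labelled kidney, but their marker genes differed from that label. The summed level of 10 liver markers was 54340 to 65120 FPKM in colistin + 7-HC, 49220 to 52860 in colistin, 105400 to 116100 in 7-HC and 90390 to 101800 in control. FPKM are fragments scaled by transcript length and library total, so levels can be compared between genes. Of 8 proximal tubule markers with values, Aqp1, a water channel also found outside the kidney, lay between 12.5 and 36.5 FPKM, and the other 7, among them Slc34a1 and Lrp2, were at most at 0.16 FPKM in any library. The sum of the 8 loop of Henle, distal tubule and collecting duct markers with values was at most 0.40 FPKM. Although the mice were recorded as female, 4 of 4 genes of the Y chromosome (Uty, Eif2s3y, Kdm5d and Ddx3y) exceeded 1 FPKM in each of the 12 libraries. The values per library summed to between 517984 and 597354 FPKM, and the number of reads is not given, so depth is unknown. In bulk tissue, fewer cells of a type and less RNA per cell cannot be told apart.

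In colistin against control, which asks what the antibiotic did alone, 28 of the 34 genes rose, 1 fell (Herpud1) and 5 did not pass the test (Ero1lb, Derl2, Sel1l, Ern1 and Creb3l3). Over all genes tested, 12.7% rose and 19.9% fell at the same threshold, an adjusted p under 0.05 from limma on log2(FPKM + 0.5). All rises and falls are given as log2 fold changes of FPKM + 0.5. Their median was 1.22 over the 34 genes and -0.07 over all genes. In all, 1369 genes rose and 2146 fell, and after scaling by median ratios 1729 rose and 1813 fell, with 30 and 1 of the 34. All 12 chaperones rose (median log2 fold change 1.99), as did 7 of 8 isomerases and oxidases (1.37), 6 of 9 degradation genes (0.71) and 3 of 5 sensors and transcription factors (0.35). Derl3 reached the minimum level for testing, 1 FPKM in 3 libraries, only through libraries given colistin, and 27 of the other 33 genes rose. At a fold change of 2 or more and an adjusted p of 0.001 or less, 15 of the 34 were higher and 1 lower, where 2.61% of all genes were higher and 3.27% lower. In these libraries 8 of 10 liver markers fell and 1 rose, and the sum of 10 neutrophil markers was 32.1 to 57.0 FPKM in colistin and 8.48 to 12 in control. Of the 6 neutrophil markers tested, S100a8, S100a9 and Retnlg rose, while Ly6g, Cxcr2 and Csf3r did not pass. S100a8 and Retnlg were tested only through libraries given colistin. The part of the liver or the neutrophil markers in the changes was not tested.

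**Figure D1:**
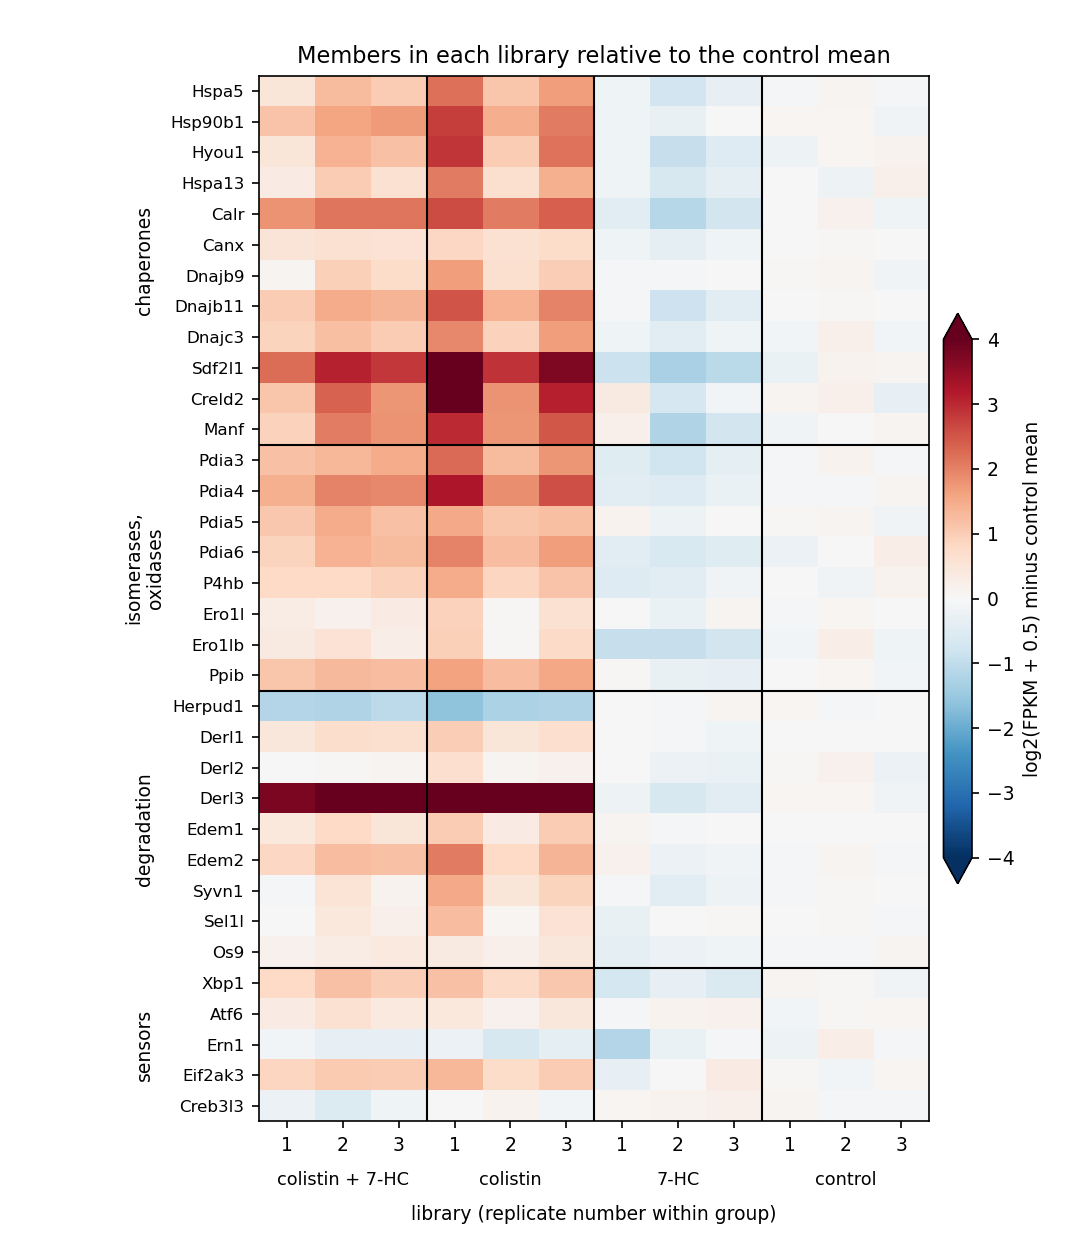
Level of each of the 34 genes (rows, by role) in each of the 12 libraries (columns, by group), as log2(FPKM + 0.5) minus the control mean; red is higher and blue lower than control, and values beyond 4 take the end colour. Nearly all rows are red in the 6 libraries given colistin, Herpud1 is blue there, and colistin replicate 1 is the reddest column.

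The sequences around the genes' starts are shown because the ER stress response element (ERSE), which is known to bind ATF6 together with the CCAAT-binding factor NF-Y, recurred in them. RefSeq windows (GRCm38.p6) of 250 bases before to 50 bases after the start were found for 29 of the 34 genes (none for Hyou1, Hspa13, Manf, Derl1 and Atf6). The ERSE was searched on both strands as CCAAT, 9 bases of any kind and CCACG, so each match also holds a CCAAT box. It was found in 10 of the 29 (34.5%), against 37 of 27025 genes with a window (0.137%). The CCAAT box alone was in 24 of 29 (82.8%), against 41.1% of all genes. The shorter ERSE-II (ATTGG, 1 base, CCACG) was in 2 of the 29, against 12 of 27025 genes (0.0444%), and the unfolded protein response element (TGACG followed by TGG) was in 0 of the 29, against 193 genes (0.714%). These are matches of letters and not measured binding. Both the listed genes and the element belong to the known ER stress response, so the shares describe this list and were not tested. The matched sites are given 5′ to 3′ along the strand that holds the element, with its fixed letters in capitals.
Derl3 ERSE (chr10:75893242-75893260): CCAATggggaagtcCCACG
Creld2 ERSE (chr15:88819520-88819538): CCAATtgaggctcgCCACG
Calr ERSE (chr8:84847075-84847093): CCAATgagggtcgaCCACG
Hsp90b1 ERSE (chr10:86705638-86705656): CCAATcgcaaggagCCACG
Hsp90b1 ERSE (chr10:86705533-86705551): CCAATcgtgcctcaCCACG
Hspa5 ERSE (chr2:34772025-34772043): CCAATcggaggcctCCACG
Pdia6 ERSE (chr12:17266491-17266509): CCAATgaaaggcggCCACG
Dnajc3 ERSE (chr14:118937827-118937845): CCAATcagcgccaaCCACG
Syvn1 ERSE (chr19:6046532-6046550): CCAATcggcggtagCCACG
Canx ERSE (chr11:50325800-50325818): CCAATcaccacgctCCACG
Ero1lb ERSE (chr13:12565682-12565700): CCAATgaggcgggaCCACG
Dnajb11 ERSE-II (chr16:22857852-22857862): ATTGGcCCACG
Herpud1 ERSE-II (chr8:94386377-94386387): ATTGGgCCACG

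Of the 10 genes with an ERSE, 9 rose in colistin against control and Ero1lb did not pass the test, with a median log2 fold change of 1.65. The 17 genes with a window and neither element had 13 rises and a median of 1.04. The 5 genes without a window had 5 rises and a median of 1.38. Derl3, tested only through libraries given colistin, was 1 of the 9 rises with an ERSE. The difference between the medians was not tested. Of the 2 genes with an ERSE-II, Dnajb11 rose and Herpud1, whose site is shown although it was picked after its values were seen, was the 1 gene that fell. The 250 bases before the start of the 5 genes with an upstream element and the largest rises follow, on the gene's strand, with the fixed letters of the element in capitals. On the opposite strand the ERSE reads CGTGG, 9 bases, ATTGG.
Derl3 (chr10:75893148-75893397, plus strand): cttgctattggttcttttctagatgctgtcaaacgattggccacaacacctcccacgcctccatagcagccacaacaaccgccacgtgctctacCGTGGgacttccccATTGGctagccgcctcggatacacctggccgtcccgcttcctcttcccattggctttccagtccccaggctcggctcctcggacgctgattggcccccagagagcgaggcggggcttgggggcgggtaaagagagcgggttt
Creld2 (chr15:88819396-88819645, plus strand): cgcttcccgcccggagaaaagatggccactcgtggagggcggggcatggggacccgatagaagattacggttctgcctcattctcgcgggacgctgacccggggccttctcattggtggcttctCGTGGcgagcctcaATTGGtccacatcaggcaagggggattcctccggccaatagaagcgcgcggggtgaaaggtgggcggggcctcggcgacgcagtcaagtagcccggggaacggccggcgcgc
Calr (chr8:84846932-84847181, minus strand): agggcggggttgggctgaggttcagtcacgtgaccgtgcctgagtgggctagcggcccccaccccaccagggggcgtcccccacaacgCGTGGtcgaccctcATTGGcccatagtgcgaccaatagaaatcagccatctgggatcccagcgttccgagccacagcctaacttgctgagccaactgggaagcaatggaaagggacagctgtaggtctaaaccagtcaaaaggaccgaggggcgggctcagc
Hsp90b1 (chr10:86705445-86705694, minus strand): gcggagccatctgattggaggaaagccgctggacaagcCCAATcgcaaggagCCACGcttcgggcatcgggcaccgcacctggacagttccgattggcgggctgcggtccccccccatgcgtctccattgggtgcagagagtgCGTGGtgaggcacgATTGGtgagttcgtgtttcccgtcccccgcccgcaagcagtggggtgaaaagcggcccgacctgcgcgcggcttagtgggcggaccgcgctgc
Hspa5 (chr2:34771840-34772089, plus strand): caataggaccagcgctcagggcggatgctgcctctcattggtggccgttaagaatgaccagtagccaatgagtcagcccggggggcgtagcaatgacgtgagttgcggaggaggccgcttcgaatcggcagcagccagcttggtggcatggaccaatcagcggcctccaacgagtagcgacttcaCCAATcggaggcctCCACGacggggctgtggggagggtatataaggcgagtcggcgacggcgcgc

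**Figure D2:**
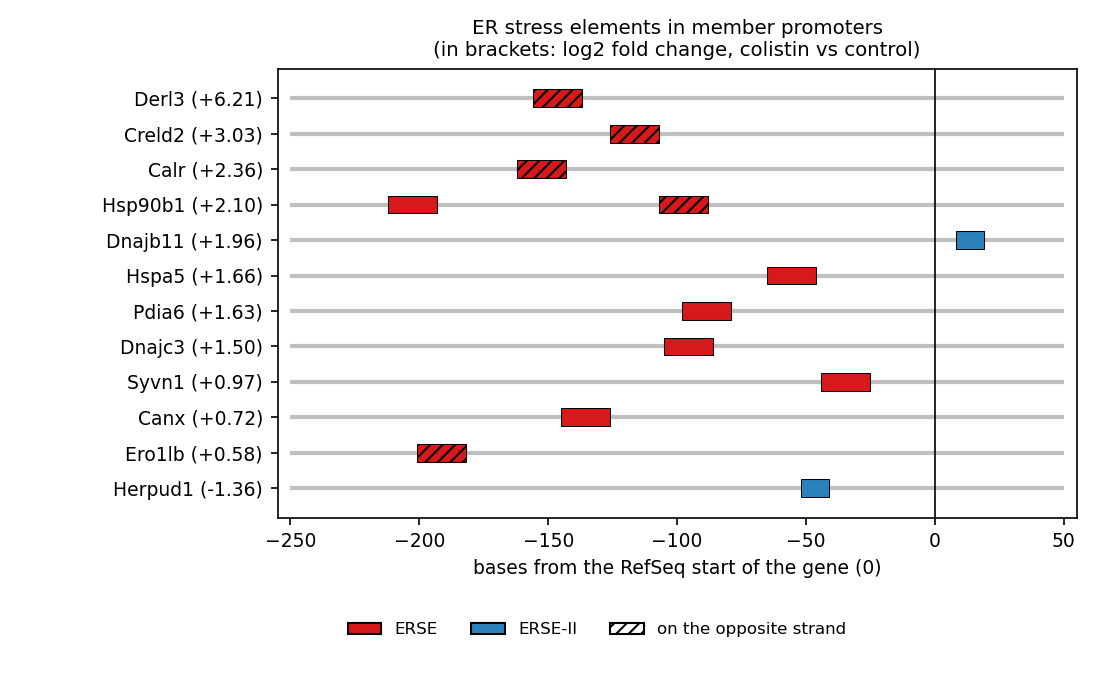
Position of each ERSE (red) and ERSE-II (blue) in the windows of the 12 genes that hold one, in bases from the RefSeq start of the gene; hatched boxes lie on the opposite strand, and each gene's log2 fold change in colistin against control is in brackets. Of the 13 sites, 12 lie before the start, and Hsp90b1 holds 2 of them.

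The largest rises among the chaperones were those of Sdf2l1, Creld2 and Manf. Sdf2l1, which binds the co-chaperone ERdj3, had 31.1, 55.9 and 46.7 FPKM in colistin + 7-HC, 147, 49.3 and 88.6 FPKM in colistin, 3.17, 2.21 and 2.7 FPKM in 7-HC and 5.03, 6.96 and 6.81 FPKM in control. All 6 libraries given colistin lay above all 6 others, and the log2 fold change in colistin against control was 3.7 (95% interval 2.96 to 4.43, adjusted p = 2.14e-05). Creld2, an ER stress-inducible protein with calcium-binding EGF domains, had 25, 60.1 and 40.2 FPKM in colistin + 7-HC, 215, 40.9 and 102 FPKM in colistin, 14.6, 6.93 and 10.5 FPKM in 7-HC and 12.4, 13.2 and 8.91 FPKM in control. Its colistin libraries spread widely among themselves and did not overlap control (log2 fold change 3.03, 95% interval 1.92 to 4.15, adjusted p = 0.00107). Manf, an ER-retained and secreted protein that binds BiP, had 49.6, 109 and 90.8 FPKM in colistin + 7-HC, 209, 88.9 and 147 FPKM in colistin, 30.2, 11 and 15.5 FPKM in 7-HC and 23.7, 26 and 28.3 FPKM in control. Its colistin libraries were all above control, at a log2 fold change of 2.41 (95% interval 1.54 to 3.27, adjusted p = 0.000908). Exons of Manf overlap those of Rbm15b on the same strand, so its values are uncertain.

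The lectin chaperones calreticulin and calnexin hold newly made glycoproteins. Calr had 940, 1184 and 1182 FPKM in colistin + 7-HC, 1635, 1127 and 1412 FPKM in colistin, 195, 122 and 161 FPKM in 7-HC and 268, 300 and 240 FPKM in control, the third highest level of the 34 genes in control. It rose by 2.36 (95% interval 1.92 to 2.79, adjusted p = 1.33e-05), with no overlap of colistin and control. Canx, its membrane-bound relative, had 78.1, 83.8 and 81.6 FPKM in colistin + 7-HC, 96.7, 83.1 and 90.4 FPKM in colistin, 48.3, 42 and 48 FPKM in 7-HC and 54.3, 55.7 and 53.4 FPKM in control. Its groups did not overlap either, and the rise was 0.72 (95% interval 0.49 to 0.94, adjusted p = 0.000393).

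Hsp90b1, which encodes GRP94, had 375, 505 and 553 FPKM in colistin + 7-HC, 1158, 462 and 714 FPKM in colistin, 148, 136 and 166 FPKM in 7-HC and 176, 177 and 154 FPKM in control. Colistin replicate 1 was the highest of all libraries, and the log2 fold change was 2.1 (95% interval 1.5 to 2.7, adjusted p = 0.000219). Hspa5, which encodes BiP, the main Hsp70 of the ER and the partner of all 3 sensors, had 219, 372 and 313 FPKM in colistin + 7-HC, 707, 337 and 498 FPKM in colistin, 138, 90.7 and 124 FPKM in 7-HC and 151, 167 and 147 FPKM in control. The lowest colistin library, at 337 FPKM, was above the highest control library, at 167 FPKM, and the log2 fold change was 1.66 (95% interval 1.07 to 2.25, adjusted p = 0.000847). Hyou1, a large Hsp70-like exchange factor of BiP, had 29.1, 54.2 and 46.5 FPKM in colistin + 7-HC, 152, 41.9 and 94.5 FPKM in colistin, 18.2, 10.7 and 14.2 FPKM in 7-HC and 17.8, 21.6 and 22.5 FPKM in control. Hspa13, another Hsp70 relative, had 9.87, 15.9 and 12.1 FPKM in colistin + 7-HC, 33.9, 12.4 and 21.7 FPKM in colistin, 6.77, 4.74 and 5.92 FPKM in 7-HC and 7.7, 6.65 and 8.93 FPKM in control. Both rose without overlap of colistin and control, Hyou1 by 2.01 (95% interval 1.16 to 2.87, adjusted p = 0.00257) and Hspa13 by 1.38 (95% interval 0.73 to 2.04, adjusted p = 0.00465).

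The J-domain co-chaperones deliver substrates to BiP and start its ATP cycle. Dnajb11 (ERdj3) had 52.8, 72.9 and 66.8 FPKM in colistin + 7-HC, 149, 68 and 104 FPKM in colistin, 24.6, 14.3 and 18.6 FPKM in 7-HC and 25.3, 26.4 and 25.8 FPKM in control. Dnajc3 (p58IPK), also known as an inhibitor of PERK, had 54.3, 67 and 59.2 FPKM in colistin + 7-HC, 110, 55.8 and 92.9 FPKM in colistin, 25.6, 21.7 and 25.7 FPKM in 7-HC and 26.8, 33.4 and 27 FPKM in control. Dnajb9 (ERdj4), which recruits BiP to IRE1, had 47.7, 87 and 75.1 FPKM in colistin + 7-HC, 142, 69.3 and 88.3 FPKM in colistin, 42.5, 42.3 and 45.4 FPKM in 7-HC and 46.3, 47.7 and 40.1 FPKM in control. All 3 were higher in every colistin library than in every control library, with log2 fold changes of 1.96 (95% interval 1.39 to 2.53, adjusted p = 0.000251) for Dnajb11, 1.5 (95% interval 1.04 to 1.97, adjusted p = 0.000376) for Dnajc3 and 1.09 (95% interval 0.53 to 1.65, adjusted p = 0.00723) for Dnajb9.

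**Figure D3:**
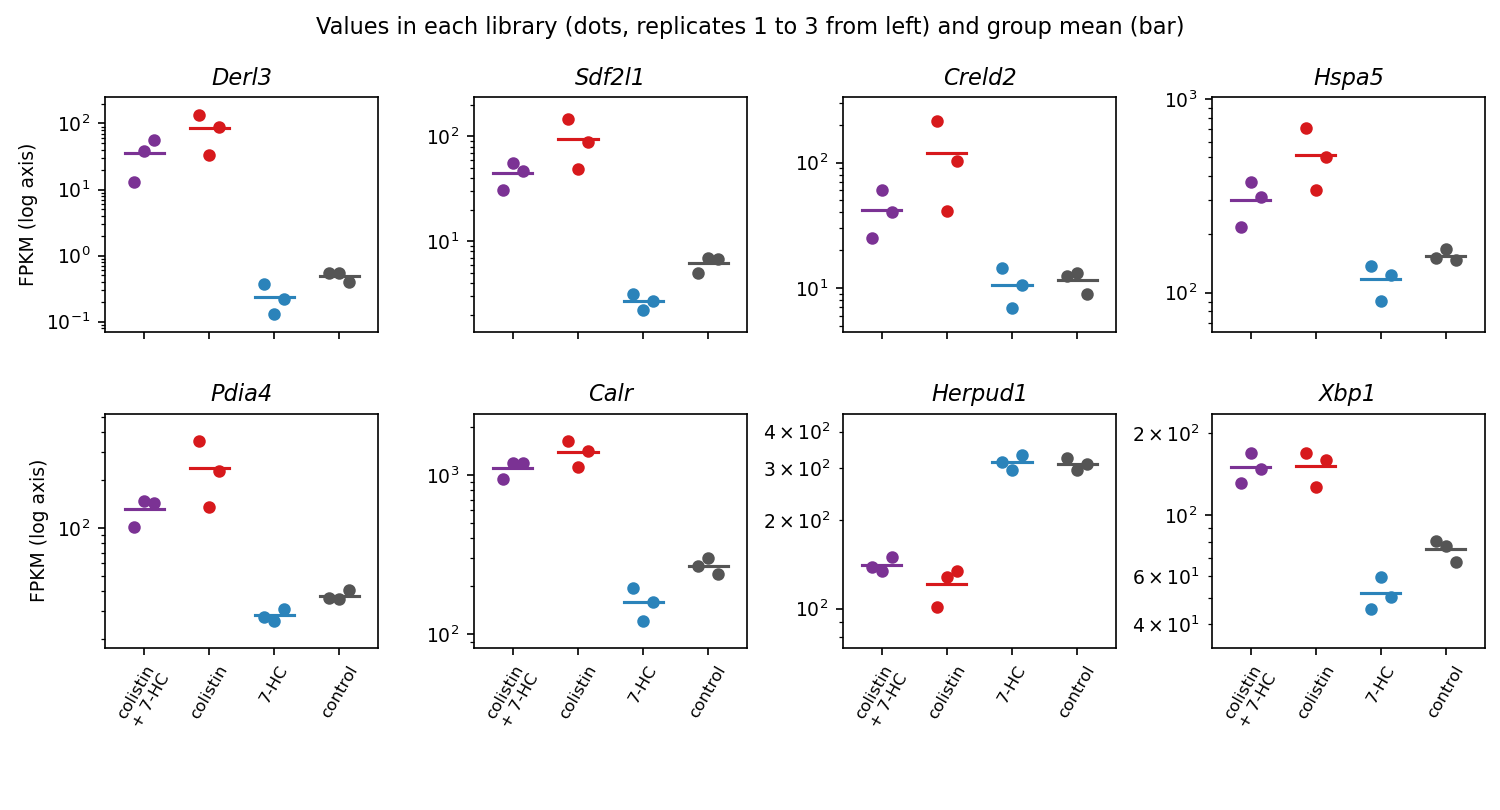
FPKM (log axis) of 8 of the genes in each library, with replicates 1 to 3 from left to right in each group and a bar at the group mean. Herpud1 is the 1 gene of these that is lower in the libraries given colistin, and Derl3 is below 1 FPKM in all 6 libraries without colistin.

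The protein disulfide isomerases make and shuffle disulfide bonds. Pdia4 (ERp72) had 102, 149 and 143 FPKM in colistin + 7-HC, 353, 136 and 228 FPKM in colistin, 27.5, 26.1 and 30.9 FPKM in 7-HC and 36, 35.7 and 40.7 FPKM in control. Every colistin library was above every control library, and the log2 fold change was 2.55 (95% interval 1.95 to 3.16, adjusted p = 6.6e-05). Pdia3 (ERp57), the partner of calreticulin and calnexin, had 258, 286 and 325 FPKM in colistin + 7-HC, 553, 279 and 389 FPKM in colistin, 82.2, 65.9 and 87.4 FPKM in 7-HC and 109, 126 and 110 FPKM in control. Pdia6 (P5) had 158, 223 and 207 FPKM in colistin + 7-HC, 339, 202 and 276 FPKM in colistin, 63.2, 56.2 and 60.5 FPKM in 7-HC and 72, 84.5 and 103 FPKM in control. Both rose, Pdia3 by 1.77 (95% interval 1.29 to 2.24, adjusted p = 0.000155) and Pdia6 by 1.63 (95% interval 1.19 to 2.08, adjusted p = 0.000165). Pdia5 had 52.7, 69.2 and 55.4 FPKM in colistin + 7-HC, 71.5, 53.2 and 57.6 FPKM in colistin, 27.1, 21.4 and 24.3 FPKM in 7-HC and 25.3, 26.2 and 22.3 FPKM in control, with a smaller spread within groups and a log2 fold change of 1.28 (95% interval 0.95 to 1.61, adjusted p = 0.000114). Exons of Pdia3 and Pdia6 overlap Catsper2 and Atp6v1c2 on the other strand, and the strand of the libraries is not given.

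P4hb, protein disulfide isomerase itself and the highest of the 34 genes in control, had 787, 792 and 863 FPKM in colistin + 7-HC, 1261, 815 and 1011 FPKM in colistin, 317, 329 and 407 FPKM in 7-HC and 453, 414 and 497 FPKM in control. Ppib, the proline isomerase cyclophilin B, had 383, 437 and 422 FPKM in colistin + 7-HC, 549, 422 and 519 FPKM in colistin, 185, 145 and 142 FPKM in 7-HC and 180, 191 and 168 FPKM in control. Neither gene's colistin libraries overlapped control, and the log2 fold changes were 1.16 (95% interval 0.79 to 1.53, adjusted p = 0.000465) for P4hb and 1.46 (95% interval 1.14 to 1.78, adjusted p = 3.85e-05) for Ppib, whose exons overlap Snx22 on the other strand. The ERO1 oxidases reoxidise the isomerases. Ero1l had 7.65, 7.07 and 7.86 FPKM in colistin + 7-HC, 12.3, 6.46 and 9.66 FPKM in colistin, 6.19, 5.06 and 6.73 FPKM in 7-HC and 5.9, 6.52 and 6.19 FPKM in control. Ero1lb had 22.3, 26.6 and 21.2 FPKM in colistin + 7-HC, 34, 18 and 29.8 FPKM in colistin, 9.04, 8.95 and 10.3 FPKM in 7-HC and 16.3, 20.9 and 15.6 FPKM in control. In both, colistin replicate 2 lay within the control range, and Ero1l passed the test (log2 fold change 0.53, 95% interval 0.12 to 0.94, adjusted p = 0.048) while Ero1lb did not (log2 fold change 0.58, 95% interval 0.12 to 1.03, adjusted p = 0.0523).

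Degradation genes held both the largest rise and the 1 fall. Derl3, a derlin of the channel that exports misfolded proteins, had 12.9, 38.5 and 56.7 FPKM in colistin + 7-HC, 136, 32.8 and 87.2 FPKM in colistin, 0.37, 0.13 and 0.22 FPKM in 7-HC and 0.54, 0.54 and 0.40 FPKM in control. It was below 1 FPKM in all 6 libraries without colistin and at 12.9 FPKM or more in all 6 libraries given it, with a log2 fold change of 6.21 (95% interval 5.06 to 7.37, adjusted p = 1.37e-05). Of its relatives, Derl1 had 49.9, 58.3 and 56.8 FPKM in colistin + 7-HC, 71.1, 51 and 57.1 FPKM in colistin, 35.8, 33.7 and 32.1 FPKM in 7-HC and 36.1, 35.7 and 36 FPKM in control. Derl2 had 17.4, 18 and 19 FPKM in colistin + 7-HC, 27.9, 19 and 19.6 FPKM in colistin, 17.4, 14.6 and 14.5 FPKM in 7-HC and 18.2, 19.7 and 14.8 FPKM in control. Derl1 rose by 0.71 (95% interval 0.43 to 0.99, adjusted p = 0.00158), and Derl2, whose exons overlap Mis12, did not pass the test (log2 fold change 0.32, 95% interval -0.03 to 0.66, adjusted p = 0.144).

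Herpud1, which encodes the membrane protein HERP that stabilises the HRD1 ligase complex, had 138, 135 and 150 FPKM in colistin + 7-HC, 101, 128 and 134 FPKM in colistin, 315, 297 and 334 FPKM in 7-HC and 326, 296 and 310 FPKM in control. The 3 colistin libraries were all below the 3 control libraries, and the gene fell by 1.36 on the log2 scale (95% interval -1.64 to -1.09, adjusted p = 2.43e-05). It was the second highest of the 34 genes in control. The ligase HRD1 itself, Syvn1, had 24.9, 39.1 and 29.2 FPKM in colistin + 7-HC, 77.6, 37.5 and 49.5 FPKM in colistin, 25.1, 19.3 and 23 FPKM in 7-HC and 25.6, 27.6 and 26.6 FPKM in control. Its partner Sel1l had 22.4, 29.5 and 25.4 FPKM in colistin + 7-HC, 52.5, 23.4 and 32.8 FPKM in colistin, 17.8, 21.7 and 22.9 FPKM in 7-HC and 22.3, 22.7 and 20.9 FPKM in control. Every colistin library was above every control library for both, while Syvn1 passed the test (log2 fold change 0.97, 95% interval 0.45 to 1.48, adjusted p = 0.00896) and Sel1l did not (log2 fold change 0.63, 95% interval 0.12 to 1.14, adjusted p = 0.0583). Exons of Syvn1 overlap Mrpl49 on the other strand.

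The EDEM proteins and OS9 take part in selecting proteins for degradation by their glycans. Edem2 had 53.3, 69.4 and 67.4 FPKM in colistin + 7-HC, 127, 51.1 and 75.9 FPKM in colistin, 33.2, 25 and 26.6 FPKM in 7-HC and 27.9, 32.2 and 28.6 FPKM in control. Edem1 had 29, 38.1 and 30.7 FPKM in colistin + 7-HC, 44, 27.5 and 43.8 FPKM in colistin, 23.5, 20.8 and 21.6 FPKM in 7-HC and 21.3, 21.7 and 21.9 FPKM in control. Both rose, Edem2 by 1.41 (95% interval 0.83 to 1.98, adjusted p = 0.00206) and Edem1 by 0.78 (95% interval 0.41 to 1.16, adjusted p = 0.0051), with no overlap of colistin and control. Os9 had 83.4, 90.2 and 95.2 FPKM in colistin + 7-HC, 94, 83.9 and 100 FPKM in colistin, 56.1, 62.2 and 64.2 FPKM in 7-HC and 70.9, 70.2 and 78.9 FPKM in control, and its rise of 0.33 (95% interval 0.09 to 0.58, adjusted p = 0.0394) was the smallest of the 28.

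Of the sensors and transcription factors, Xbp1 and Eif2ak3 changed most. Xbp1 had 132, 170 and 148 FPKM in colistin + 7-HC, 169, 127 and 159 FPKM in colistin, 45.5, 59.8 and 50.3 FPKM in 7-HC and 80.8, 77.2 and 67.5 FPKM in control. Every colistin library was above every control library (log2 fold change 1.0, 95% interval 0.66 to 1.34, adjusted p = 0.000629), and the table holds 1 value per gene, so its splicing could not be read. Eif2ak3, the PERK kinase, had 5.89, 6.72 and 6.49 FPKM in colistin + 7-HC, 8.27, 5.36 and 6.61 FPKM in colistin, 2.29, 3.0 and 3.85 FPKM in 7-HC and 3.1, 2.7 and 3.18 FPKM in control. Its lowest colistin library, at 5.36 FPKM, was above its highest control library, at 3.18 FPKM, with a log2 fold change of 1.04 (95% interval 0.65 to 1.42, adjusted p = 0.00112). Atf6 had 9.43, 11.5 and 9.86 FPKM in colistin + 7-HC, 10.1, 8.3 and 10.2 FPKM in colistin, 6.93, 8.08 and 8.4 FPKM in 7-HC and 6.71, 7.63 and 7.7 FPKM in control and rose by 0.35 (95% interval 0.08 to 0.62, adjusted p = 0.0458).

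Ern1, the gene of IRE1, had 7.08, 6.08 and 6.09 FPKM in colistin + 7-HC, 6.5, 4.79 and 5.73 FPKM in colistin, 3.18, 6.42 and 7.4 FPKM in 7-HC and 6.7, 9.38 and 7.39 FPKM in control. All 3 colistin libraries were below the 3 control libraries, but the difference did not pass the test (log2 fold change -0.43, 95% interval -0.96 to 0.11, adjusted p = 0.202). Creb3l3 had 96.6, 78.1 and 99.9 FPKM in colistin + 7-HC, 112, 124 and 106 FPKM in colistin, 119, 126 and 130 FPKM in 7-HC and 122, 110 and 108 FPKM in control, with overlapping groups and a log2 fold change of 0.01 (95% interval -0.26 to 0.28, adjusted p = 0.975). Atf6, Ero1l and Os9 were the rises that some other settings or left-out libraries ended, with adjusted p-values of up to 0.152, 0.185 and 0.132.

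The same question was asked in mice given 7-HC, by comparing colistin + 7-HC with 7-HC, which shares no library with the comparison above. Here 26 of the 34 genes rose, 2 fell (Herpud1 and Creb3l3) and 6 did not pass (Dnajb9, Ero1l, Derl2, Syvn1, Sel1l and Ern1), where 14.5% of all genes tested rose and 16.6% fell. The median log2 fold change was 1.24 over the 34 genes and -0.01 over all genes. Derl3 was again tested only through libraries given colistin, and without it 25 genes rose. At the stricter threshold 11 of the 34, Derl3 among them, were higher and 1 lower, where 2.45% of all genes were higher and 2.14% lower. Both comparisons called 25 genes higher and Herpud1 lower. Both take the spread of each gene from the same fit of all 12 libraries.

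The rises were again largest for Derl3, with the limit given above, at 5.4 (95% interval 4.25 to 6.56, adjusted p = 4.3e-05), and Sdf2l1, at 3.79 (95% interval 3.06 to 4.52, adjusted p = 2.13e-05). Calr rose by 2.81 (95% interval 2.37 to 3.24, adjusted p = 4.07e-06) and Pdia4 by 2.18 (95% interval 1.58 to 2.79, adjusted p = 0.000214). Hspa5 rose by 1.34 (95% interval 0.75 to 1.93, adjusted p = 0.0035) and Hsp90b1 by 1.65 (95% interval 1.05 to 2.25, adjusted p = 0.00116). Herpud1 fell by 1.16 on the log2 scale (95% interval -1.44 to -0.88, adjusted p = 8.77e-05), with every colistin + 7-HC library below every 7-HC library. Creb3l3 fell by 0.45 (95% interval -0.72 to -0.18, adjusted p = 0.0164), also without overlap. Ero1lb, which did not pass in colistin against control, rose by 1.26 (95% interval 0.81 to 1.72, adjusted p = 0.00112) in colistin + 7-HC against 7-HC. Dnajb9 was higher in every colistin + 7-HC library than in every 7-HC library at 0.64 (95% interval 0.08 to 1.2, adjusted p = 0.0779), and Syvn1, at 0.44 (95% interval -0.07 to 0.96, adjusted p = 0.177), overlapped.

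Colistin + 7-HC replicate 2 stood apart in another way. It held transcripts of digestive enzymes of the exocrine pancreas, a tissue rich in ER chaperones, with Ctrb1 at 31.67 FPKM there and at most 0.51 FPKM in the other 11 libraries. The sum of 10 pancreas markers was 73.2 FPKM in that library, and the highest sum elsewhere was 11.3 FPKM. It was also the highest of its group in 24 of the 34 genes. Any part of the pancreas transcripts in this was not tested. Without this library, 22 genes rose and 1 fell in colistin + 7-HC against 7-HC, and Hspa13, Creld2, Edem1, Atf6 and Creb3l3 no longer passed. Over all genes tested, 1082 rose and 1269 fell without it, against 1560 and 1789 with all libraries. Leaving out 7-HC replicate 2 instead also gave 22 rises among the 34 genes. Plasma cells are another cell type rich in ER folding proteins. Of their markers, Jchain lay at 0.84 FPKM or less in every library, Mzb1 at 0.75 or less and Tnfrsf17 at 0.07 or less. The sum of the 8 plasma cell markers with values, most of it Sdc1, which hepatocytes also express, was 15.9 to 20.7 FPKM in colistin + 7-HC, 24.4 to 34.2 in colistin, 42.5 to 60.8 in 7-HC and 40.8 to 43.3 in control (Ighm and Igkc were not analysed here). Its part in the changes was not tested.

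**Figure D4:**
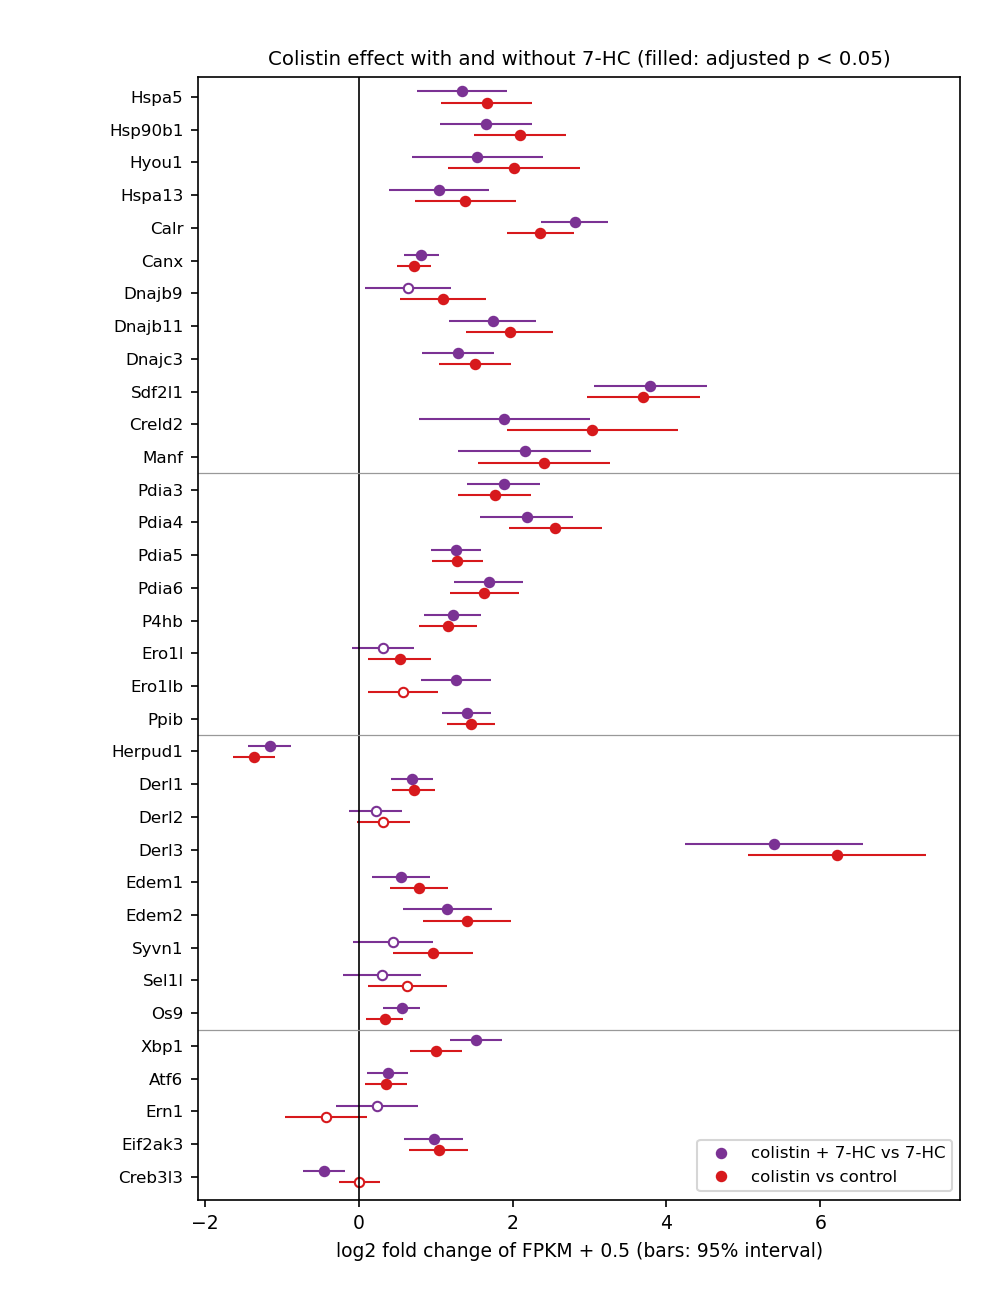
Log2 fold changes of FPKM + 0.5 with 95% intervals for the 34 genes, in colistin + 7-HC against 7-HC (purple) and in colistin against control (red); filled points passed an adjusted p under 0.05. Of each set, 32 points lie right of 0, Herpud1 lies left of 0 in both, and Derl3 and Sdf2l1 lie furthest right.

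Whether the change with colistin differed when 7-HC was present was tested by the interaction of both compounds. None of the 34 genes passed with limma (0 higher and 0 lower, where 0.158% of all genes tested were higher and 0.139% lower), and 3 had an unadjusted p under 0.05, where 11.5% of all genes did, so that count was not above the background. Those 3 were Ero1lb, with an interaction of 0.69 (95% interval 0.04 to 1.33, adjusted p = 0.403) on the log2 scale, Xbp1, at 0.52 (95% interval 0.04 to 1.0, adjusted p = 0.384), and Creb3l3, at -0.46 (95% interval -0.84 to -0.08, adjusted p = 0.332). A positive value means a larger colistin change with 7-HC present. The intervals of single genes were wide, as for Creld2, whose interaction was -1.14 (95% interval -2.72 to 0.43, adjusted p = 0.594).

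Colistin + 7-HC against colistin is the comparison that asks what 7-HC did in mice given the antibiotic. With limma, 0 of the 34 genes rose and 0 fell at an adjusted p under 0.05, and over all genes tested 0.00929% rose and 0% fell. All the same, 31 of the 34 log2 fold changes were below 0, with a median of -0.33 against 0.02 over all genes. At an unadjusted p under 0.05, 12 of the 34 genes were lower, where 5.31% of all genes were. Because the 34 genes moved together across libraries, these counts do not rest on separate observations. Colistin + 7-HC replicate 1 was the lowest of its group in 29 of the 34 genes. With colistin replicate 1 left out, 25 of the 34 log2 fold changes were below 0. The colistin + 7-HC libraries lay above all colistin libraries for Herpud1 and below all of them for Derl2 and Creb3l3. Such non-overlap was found upward in 9.91% and downward in 6.99% of all genes, so neither count was above the background.

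By role, the chaperones had the lowest median, -0.70, with 12 of 12 below 0, followed by the isomerases and oxidases at -0.29, the degradation genes at -0.26 and the sensors and transcription factors at -0.01. Creld2 had the largest difference, -1.29 (95% interval -2.4 to -0.17, adjusted p = 0.336), then Derl3, -1.25 (95% interval -2.4 to -0.09, adjusted p = 0.369), Hyou1, -1.0 (95% interval -1.86 to -0.15, adjusted p = 0.332), and Sdf2l1, -0.99 (95% interval -1.72 to -0.25, adjusted p = 0.291). For Calr the value was -0.33 (95% interval -0.76 to 0.11, adjusted p = 0.532), and for Xbp1 it was -0.01 (95% interval -0.35 to 0.32, adjusted p = 0.984). Calr and Xbp1 thus had intervals that include 0, as did Herpud1 (log2 fold change 0.22, 95% interval -0.05 to 0.50, adjusted p = 0.498). So did most of the 34 genes, as 12 had an unadjusted p under 0.05 with limma.

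This comparison depended on 1 library. Colistin replicate 2 was the lowest of its group in 32 of the 34 genes, and colistin replicate 1 the highest in 30. The median over the 34 genes, relative to the control mean on the log2 scale, was 0.66, 1.11 and 0.99 in the colistin + 7-HC libraries, 1.57, 0.77 and 1.19 in the colistin libraries, -0.17, -0.35 and -0.18 in the 7-HC libraries and -0.01, 0.06 and -0.04 in the control libraries. Of the 3 colistin + 7-HC libraries, 2 thus lay within the range of the colistin libraries. The median SD of the log2 values was 0.19 in colistin + 7-HC, 0.46 in colistin, 0.19 in 7-HC and 0.12 in control over the 34 genes, and 0.15, 0.19, 0.19 and 0.15 in the same groups over all genes.

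Since colistin replicate 2 was the lowest of its group in 32 of the 34 genes, leaving it out raises the colistin mean of those genes. Calls of lower genes without it thus follow in part from the choice of library and are no separate evidence on 7-HC. Without colistin replicate 2, 10 of the 34 genes were lower in colistin + 7-HC than in colistin, where 1.38% of all genes tested were: Hspa5, Hsp90b1, Hyou1, Hspa13, Dnajb11, Dnajc3, Sdf2l1, Creld2, Pdia4 and Syvn1. The median log2 fold change was then -0.57, and Creld2 was at -1.9 (95% interval -2.81 to -1.0, adjusted p = 0.0314), Hyou1 at -1.5 (95% interval -2.15 to -0.86, adjusted p = 0.0234), Sdf2l1 at -1.39 (95% interval -1.99 to -0.79, adjusted p = 0.0235) and Pdia4 at -1.13 (95% interval -1.59 to -0.68, adjusted p = 0.0189). Without colistin replicate 1 the median was -0.18 and without colistin replicate 3 it was -0.36, with 0 genes called in either. Leaving out colistin + 7-HC replicate 2, which held the pancreas transcripts, gave a median of -0.39 and 0 calls. Leaving out both replicates numbered 2, which was decided with the data in view, gave 9 genes lower, where 79 of 10656 genes tested were.

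**Figure D5:**
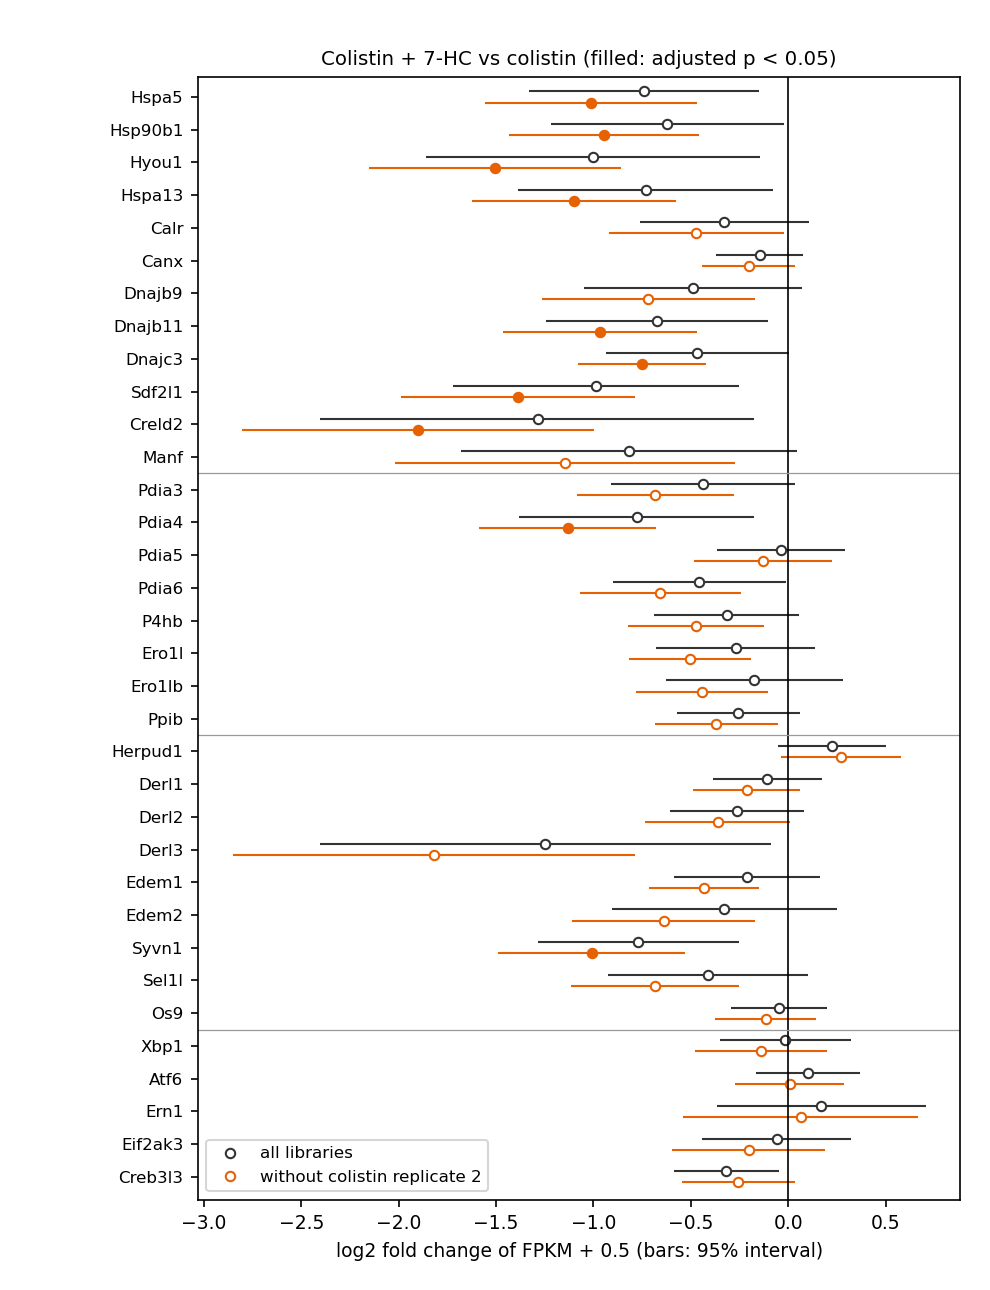
Log2 fold changes of FPKM + 0.5 with 95% intervals in colistin + 7-HC against colistin, over all libraries (black) and without colistin replicate 2 (orange); filled points passed an adjusted p under 0.05. No black point is filled, and 10 orange points are, 8 of them chaperones.

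In 7-HC against control, which asks what 7-HC did alone, 0 of the 34 genes rose and 0 fell with limma, where 0.0743% of all genes tested rose and 0.0929% fell. The log2 fold changes were below 0 for 29 of the 34 genes, with a median of -0.25 against -0.04 over all genes. For 9 of the 34 the unadjusted p was under 0.05, all lower, where 6.54% of all genes were lower at that p. Every 7-HC library was below every control library for 15 of the 34 genes, where 10.1% of all genes showed this. These 15 were 6 chaperones (Hspa5, Calr, Canx, Dnajb11, Dnajc3 and Sdf2l1), 5 isomerases and oxidases (Pdia3, Pdia4, Pdia6, P4hb and Ero1lb), 3 degradation genes (Derl3, Syvn1 and Os9) and Xbp1. Derl3 was below 1 FPKM in all of the 7-HC and control libraries and was tested only through libraries given colistin.

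The largest of these differences was that of Sdf2l1, at -1.08 (95% interval -1.82 to -0.35, adjusted p = 0.295), followed by Ero1lb, at -0.86 (95% interval -1.32 to -0.41, adjusted p = 0.18), and Calr, at -0.78 (95% interval -1.21 to -0.34, adjusted p = 0.206). Xbp1 was at -0.54 (95% interval -0.87 to -0.20, adjusted p = 0.253) and Hspa5 at -0.42 (95% interval -1.01 to 0.17, adjusted p = 0.678). The 34 genes moved together across libraries, and 7-HC replicate 2 was the lowest of its group in 23 of them, so the 15 are not separate observations. The vehicle differed between the groups as well and cannot be told apart from 7-HC.

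Other genes of the same pathways were read from lists chosen alongside the 34. Of 30 tested genes of ER folding and glycan quality control, 12 rose and 0 fell in colistin against control (median log2 fold change 0.29), led by the proline isomerase Fkbp11, the reductase Dnajc10 (ERdj5) and the glucosyltransferase Uggt1. Fkbp11 had 28.5, 39.9 and 37.8 FPKM in colistin + 7-HC, 133, 33.8 and 74.2 FPKM in colistin, 11.3, 5.65 and 6.83 FPKM in 7-HC and 10.1, 12.4 and 8.42 FPKM in control, with all libraries given colistin above all others (log2 fold change 2.71, SE 0.40, adjusted p = 0.000514). Dnajc10 rose by 1.78 (SE 0.33, adjusted p = 0.00182) and Uggt1 by 1.14 (SE 0.19, adjusted p = 0.00108). Of all genes, 12.7% rose and 19.9% fell. In colistin + 7-HC against 7-HC, where 14.5% of all genes rose and 16.6% fell, 11 rose and 2 fell (Gpx7 and Tmx2), led by Fkbp11 at 2.13 (SE 0.40, adjusted p = 0.00252), Dnajc10 and the sulfhydryl oxidase Qsox1 at 1.53 (SE 0.29, adjusted p = 0.00251).

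Of 29 other degradation genes, 5 rose and 1 fell in colistin against control (median 0.13), so the rises were near the 12.7% of all genes and the falls fewer than the 19.9%. The selenoprotein Selenok rose by 1.07 (SE 0.19, adjusted p = 0.00133), Ubxn4, which recruits the p97 ATPase, by 0.93 (SE 0.15, adjusted p = 0.000741), and the ligase Rnf185 by 0.67 (SE 0.13, adjusted p = 0.0032), while Fam8a1 fell by 0.40 on the log2 scale. In colistin + 7-HC against 7-HC, 4 rose, led by Selenos, Selenok and Ubxn4, and 2 fell, Tmub1 and Rnf5, with the rises again near the 14.5% of all genes. Of 11 other sensors and their processing factors, 5 rose and 1 fell in colistin against control (median 0.36). Of the rises, Creb3l1 reached 1 FPKM in the colistin libraries only and was tested only through them. Of the other 10, 4 rose, where 12.7% of all genes rose and 19.9% fell. The other rises included Creb3l2 at 0.78 (SE 0.24, adjusted p = 0.0267), Wfs1 at 0.73 (SE 0.24, adjusted p = 0.0386) and Ptpn1 at 0.59 (SE 0.19, adjusted p = 0.0325), while Tmbim6 fell. In colistin + 7-HC against 7-HC, 1 of the 11 rose, Creb3l2, which was not above the 14.5% of all genes.

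Of 10 genes of the PERK arm and its factor ATF4, 3 rose and 1 fell in colistin against control (median 0.45). Asns and Nupr1 reached 1 FPKM in 3 libraries only through libraries given colistin, and of the other 8 genes 1 rose and 1 fell (median 0.13), which was not above the 12.7% and 19.9% of all genes. Asns, the asparagine synthetase gene and an ATF4 target, had 32, 44.1 and 44.2 FPKM in colistin + 7-HC, 38.8, 23.4 and 34.2 FPKM in colistin, 0.27, 0.20 and 0.15 FPKM in 7-HC and 1.78, 2.48 and 0.20 FPKM in control. The control libraries themselves spread widely, but all lay below the colistin libraries (log2 fold change 4.25, SE 0.42, adjusted p = 3.85e-05). Nupr1, a stress-induced nuclear protein, rose by 3.2 (SE 0.33, adjusted p = 5.12e-05) and Atf4 by 0.86 (SE 0.16, adjusted p = 0.0019), while Ppp1r15b, a subunit of the phosphatase that reverses PERK, fell by 0.36 on the log2 scale. In colistin + 7-HC against 7-HC 4 rose, led by Asns, Nupr1 and Chac1, or 2 of the other 8 (Chac1 and Atf4), and Ppp1r15b fell. In that comparison 14.5% of all genes rose and 16.6% fell. Ddit3, which encodes the ER stress factor CHOP, did not pass in either comparison and was at 0.78 (SE 0.30, adjusted p = 0.0674) in colistin against control. Across the 4 lists, 0 genes passed in 7-HC against control, in colistin + 7-HC against colistin or in the interaction.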

How the data were processed

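Total RNA from tissue labelled kidney was sequenced from 3 mice in each of 4 groups. The authors filtered reads with SOAPnuke and, per the labels' processing notes, used HISAT2 2.0.4, Bowtie2 2.2.5 and RSEM 1.2.12 with GRCm38.p6; their own comparisons used DESeq2 1.4.5. The deposited table holds values with no unit stated, and since they are not whole and their sums per library differ, they were taken as FPKM computed by the authors. Fold changes and p-values of the authors were not used. Of 22899 genes listed, 17738 had values and 5161 were blank in all libraries. Read numbers are not given, so no counting interval was computed.

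A minimum of 1 FPKM in 3 or more libraries left 10764 genes, whose log2(FPKM + 0.5) values were fitted in limma 3.58.1 (R 4.3.3), with the mean-variance trend, a term per group and all 12 libraries in 1 fit. The pseudocount understates changes of low genes. Benjamini-Hochberg adjustment covered all genes of a comparison, and a gene rose or fell at an adjusted p under 0.05. Replicates were separate mice. Promoter windows came from RefSeq, and exon overlaps from the GENCODE annotation. All 34 genes are named, with values in every library. Of each pathway list, up to 3 of the largest rises and 3 of the largest falls are named. Members and lists were chosen with earlier results of these data known. The fit was checked on data with known changes. Alternatives were other filters, pseudocounts and thresholds, no trend, scaling by median ratios, only the groups compared, a replicate block and leaving out libraries. Figures were drawn with matplotlib 3.10.9.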

Additional observations from a re-analysis of the deposited data

How the results depend on the processing

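In colistin against control 29 of the 34 genes were called, and 26 of them (25 higher, 1 lower) passed in all alternatives run (21 for each gene but Derl3, with 20, since it was not tested at 1 FPKM or more in every library), while Atf6, Ero1l and Os9 did not. Of the 28 called in colistin + 7-HC against 7-HC, 23 (22 higher, 1 lower) did, and Atf6, Creb3l3, Creld2, Edem1 and Hspa13 did not, the last of which, like Creld2, was lost without colistin + 7-HC replicate 2 or 7-HC replicate 2. At a fold change of 2 or more and an adjusted p of 0.001 or less, 15 genes were higher and 1 lower in colistin against control and 11 higher and 1 lower in colistin + 7-HC against 7-HC. With 1 library left out, the counts in colistin against control were 25 to 30 higher and 1 to 2 lower (the second was Ern1, without 7-HC replicate 1), and those in colistin + 7-HC against 7-HC 22 to 27 higher and 1 to 2 lower. Over all genes tested, these settings gave 937 to 1475 higher and 1543 to 2423 lower in colistin against control. In colistin + 7-HC against 7-HC they gave 1082 to 1638 higher and 1269 to 1955 lower. In colistin + 7-HC against colistin the count lower was 0 to 10, with 10 only without colistin replicate 2, and in 7-HC against control it was 0 to 1, with Ero1lb without colistin replicate 2. With that library left out, 148 and 16 of 10711 genes tested were lower in the same comparisons. Without both replicates numbered 2, a setting chosen after seeing the data, 1 gene was lower in colistin + 7-HC against 7-HC, 9 in colistin + 7-HC against colistin and 1 in 7-HC against control. Over the 10656 genes tested in that setting, 1463, 79 and 12 were lower, in the same order. The causes were not tested.

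Replicate numbers did not pair the mice: residuals of libraries with the same number correlated above 0.1 in 2 of 18 pairs. With a replicate block, 27 genes were higher in colistin against control and 24 in colistin + 7-HC against 7-HC, where 1221 and 1402 of all 10764 genes tested were. Among values that did not pass, the log2 fold change of Creb3l3 in colistin against control lay between -0.056 and 0.058 with 1 library left out, below 0 without colistin replicate 2, control replicate 2 or control replicate 3, and was -0.056 without both replicates numbered 2. That of Ern1 in colistin + 7-HC against 7-HC lay between -0.099 and 0.452, below 0 without 7-HC replicate 1. Unknown depth, 3 mice per group and libraries with liver markers under a kidney label limit all comparisons.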

Other observations

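Among the 37 genes whose window holds an ERSE, 27 are not among the 34 genes described above, and 6 of these were tested. In colistin against control, where 12.7% of all genes tested rose and 19.9% fell, 3 of the 6 rose and 0 fell. These were Alg12, a mannosyltransferase of the ER glycan pathway, with a log2 fold change of 1.66 (adjusted p = 0.000534 from limma), Acnat2, an acyltransferase, at 0.90 (adjusted p = 0.0154), and Xlr3a, at 2.61 (adjusted p = 0.0499). In colistin + 7-HC against 7-HC, Alg12 rose by 1.01 (adjusted p = 0.0104), while Acnat2 was at -0.26 (adjusted p = 0.443) and Xlr3a at 2.2 (adjusted p = 0.0946). They were named after their values were seen, and Xlr3a has near-identical copies, so its values are uncertain.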
